A study of Mus musculus with 36 samples.

Results

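Expression of the genes for presentation of antigen on major histocompatibility complex (MHC) class II was examined in the stria vascularis of CBA/J mice at 3 ages. The set consisted of 7 genes chosen by name, Cd74, H2-Aa, H2-Ab1, H2-Eb1, H2-DMa, H2-DMb1 and Ciita, out of 48709 genes in the deposited table, and each had 1 row there. The samples were young mice of 1 month (postnatal day 30), adult mice of 9 months and old mice of 26 months, of either sex, with no treatment given in the labels at any age. There were 3 libraries for every age, lettered A, B and C, each from about 1000 cells of 4 cochleae of 2 mice, so that a library is a pool of marginal, intermediate and basal cells and of whatever other cells came with the tissue. The strain is written CBA in the labels, which speak of 3 independent samples at an age. The study's methods describe the libraries as fewer biological replicates with technical repeats, so the SDs and p-values below may measure technical spread.

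Class II molecules are heterodimers of an α and a β chain that display peptides from endosomes to CD4 T cells. Newly made chains are held by the invariant chain, encoded by Cd74, which fills the groove and directs the complex to endosomes. There proteases such as cathepsin S trim the invariant chain to a short remnant, and the H2-DM dimer exchanges this remnant for a peptide. Transcription of the class II chain genes depends largely on the co-activator CIITA, which has no DNA-binding domain of its own. It joins RFX and NF-Y proteins on the X and Y boxes upstream of these genes. Macrophages, dendritic cells and B cells are the usual sources of class II transcripts, and the stria vascularis contains resident perivascular macrophages along its capillaries.

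Of the 7 genes 5 lie together in the MHC on chromosome 17, in GRCm38 coordinates with GENCODE M21 gene models. H2-DMa spanned 34119541 to 34139101 and H2-DMb1 34153072 to 34160230 on the plus strand, followed by H2-Ab1 (34257689 to 34269419, plus strand), H2-Aa (34282744 to 34287823, minus strand) and H2-Eb1 (34305867 to 34316674, plus strand). The genes for the invariant chain and the co-activator lie on other chromosomes. The reference genome is that of C57BL/6J, which carries another MHC haplotype than CBA mice. How this affected the mapping of reads to each chain was not tested.

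The X and Y boxes could be seen in promoter windows of 250 bases before and 50 bases after the start site, taken from RefSeq on GRCm38.p6. Windows were found for 4 of the 7 members, H2-Aa, H2-Eb1, H2-DMb1 and, with 2 start sites, H2-DMa. The letters searched on both strands were CTNGNAAC for the core of the X box, TGATTGG for the Y box with its CCAAT motif, and the first followed by the second after 20 to 35 bases. They were chosen from these same promoters, so a match describes the sequence and does not show binding. Whether this arrangement bears on the level of a gene or its change with age was not tested. The stretches below hold both boxes in capitals. They are shown because H2-Aa and H2-Eb1 share this arrangement but differed in the size of their change with age, and H2-Ob, a chain of the H2-DM inhibitor that is not a member, shares it at mean levels of only 0.0917, 0.125 and 0.183 RPKM (read number per unit of transcript length, scaled to the total mapped in each library) at 1, 9 and 26 months.
H2-Aa: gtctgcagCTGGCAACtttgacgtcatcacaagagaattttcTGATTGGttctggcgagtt
H2-Eb1: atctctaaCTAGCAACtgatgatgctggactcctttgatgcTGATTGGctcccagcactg
H2-Ob: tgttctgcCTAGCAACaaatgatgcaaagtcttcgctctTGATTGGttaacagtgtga
The H2-Aa stretch is chr17:34287855-34287915 on the minus strand, that of H2-Eb1 chr17:34305765-34305824 and that of H2-Ob chr17:34238807-34238864, both on the plus strand. The X core began 84 bases before the start site in H2-Aa and 94 in H2-Eb1, and the gap to the Y box was 26 and 25 bases. H2-DMb1 also held both in this arrangement, whereas neither H2-DMa window held any of the letters. Of 32851 windows of all genes, 13.2% held the X core, 7.82% the Y box and 0.0457% (15 windows of 13 genes) both in this arrangement.

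All 3 ages expressed the genes of the stria strongly. The 14 marker genes of marginal, intermediate and basal cells, among them Kcne1, Kcnq1 and Dct, summed to 6688 to 6830 RPKM at 1 month, 7524 to 7743 at 9 months and 7065 to 7097 at 26 months. The libraries had 14818 to 15315 genes at or above 0.1 RPKM. Their read depth is unknown, since the table holds no counts, and no counting interval can be given. Within an age some libraries were nearly alike: over the 500 most abundant genes the median coefficient of variation between 2 libraries was 0.796% to 1.39% at 26 months for every pair, 1.2% at 1 month for B with C and 1.39% at 9 months for A with C. The remaining pairs differed by 4.08% to 8.44%. Averaging these near-identical libraries leaves 5 samples, and this was run as an alternative for each comparison of ages. It merges all libraries of 26 months, so no spread at that age enters this alternative. Markers of other cells differed between the ages as well. The summed level of 12 neutrophil and red cell genes was 3162 to 3271 RPKM at 1 month, 373.7 to 465.1 at 9 months and 693.6 to 737.8 at 26 months, and that of 8 spiral ligament fibrocyte genes 137.4 to 138.7, 580.6 to 613.6 and 265.5 to 267.4.

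Class II transcripts were highest in the old stria. The summed level of the 7 genes was 16.4 to 19.3 RPKM in the libraries of 1 month, 24.0 to 26.1 at 9 months and 62.5 to 63.8 at 26 months. Cd74, H2-Ab1 and H2-Aa accounted for the calls between 9 and 26 months, while H2-Eb1 and both H2-DM chains differed by less and Ciita by no more than its spread. With bulk RNA, more cells of a type and more RNA per cell cannot be told apart.

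The invariant chain gene Cd74 (chromosome 18, 60803848 to 60812652, plus strand) had the highest mean of the set over all libraries. Its level was 5.50, 6.28 and 5.93 RPKM in libraries A, B and C at 1 month, 8.60, 9.10 and 7.90 at 9 months and 31.4, 32.4 and 31.3 at 26 months. Every old library stood above every adult library, and every adult library above every young one. Of all genes tested, 29% had every old library above every adult one, and 50.3% had every adult library above every young one. These shares also apply to the members below. The means were 5.90 ± 0.388, 8.53 ± 0.603 and 31.7 ± 0.621 RPKM (SD, n = 3 each). Over the 9 libraries 80% of the tested genes had a lower mean than Cd74.

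H2-Ab1 and H2-Aa encode the β and α chain of the I-A molecule. H2-Ab1 measured 1.43, 1.95 and 1.68 RPKM at 1 month, 2.13, 2.63 and 2.20 at 9 months and 9.33, 8.55 and 8.58 at 26 months. The old libraries lay far above all others, whereas the young and adult ones were close, with a highest young value of 1.95 and a lowest adult value of 2.13. H2-Aa measured 0.600, 0.850 and 0.775 RPKM at 1 month, 1.18, 1.23 and 1.2 at 9 months and 3.38, 3.55 and 3.73 at 26 months, again with no overlap between ages. In H2-Aa the spread was widest at 1 month, where the coefficient of variation was 17.3% against 2.08% at 9 months and 4.93% at 26 months.

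H2-Eb1 encodes the β chain of the other class II molecule, I-E. It measured 0.375, 0.525 and 0.500 RPKM at 1 month, 0.700, 0.725 and 0.725 at 9 months and 1.40, 1.13 and 1.25 at 26 months. The ages did not overlap, but the old mean of 1.26 ± 0.138 RPKM was well below that of the I-A chains. The gene for the I-E α chain is annotated in the reference only as H2-Ea-ps, because C57BL/6 mice do not express it. It was listed at no more than 0.1 RPKM in any library and was not tested. The mice here were CBA, with another MHC haplotype, so the low value may not show whether they express the gene. H2-Eb2, a further β chain gene, was listed at 0 in all 9 libraries.

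H2-DMa and H2-DMb1 encode the H2-DM dimer. By its mean over the 9 libraries H2-DMb1 was the most abundant member after Cd74, at 6.28, 7.28 and 6.90 RPKM at 1 month, 8.28, 8.98 and 8.85 at 9 months and 13.7, 13.0 and 13.6 at 26 months. H2-DMa measured 2.20, 2.40 and 2.33 RPKM, then 3.2, 3.33 and 3.05, and then 4.53, 4.15 and 3.88. Both stood in order of age with no overlap between libraries, over a narrower range than the I-A chains. Some H2-DMb1 reads cannot be assigned with certainty, because its neighbouring copy H2-DMb2 matched 94.6% of 1219 aligned transcript bases, although only 13.7% of its 100-base windows occur unchanged in that copy. H2-DMb2 had means of 3.61, 4.88 and 7.79 RPKM, and the ratio of the copies was 1.90, 1.78 and 1.73 at 1, 9 and 26 months. H2-DMa shares 360 of its exon bases (10.4%) with Brd2 on the opposite strand, and the library chemistry keeps no strand. Brd2 itself measured 13.2, 19.0 and 16.3 RPKM on average.

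Ciita (chromosome 16, 10480059 to 10528418, plus strand) was barely detected. It measured 0.050, 0.025 and 0.075 RPKM at 1 month, 0.1, 0.1 and 0.075 at 9 months and 0.150, 0.075 and 0.175 at 26 months. The values overlapped between every pair of ages, and they are only a few steps of 0.025 RPKM, the resolution of the table. Of the tested genes only 4.37% had a lower mean. Ciita also shares 329 exon bases (3.45%) with Dexi on the opposite strand.

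**Figure D1:**
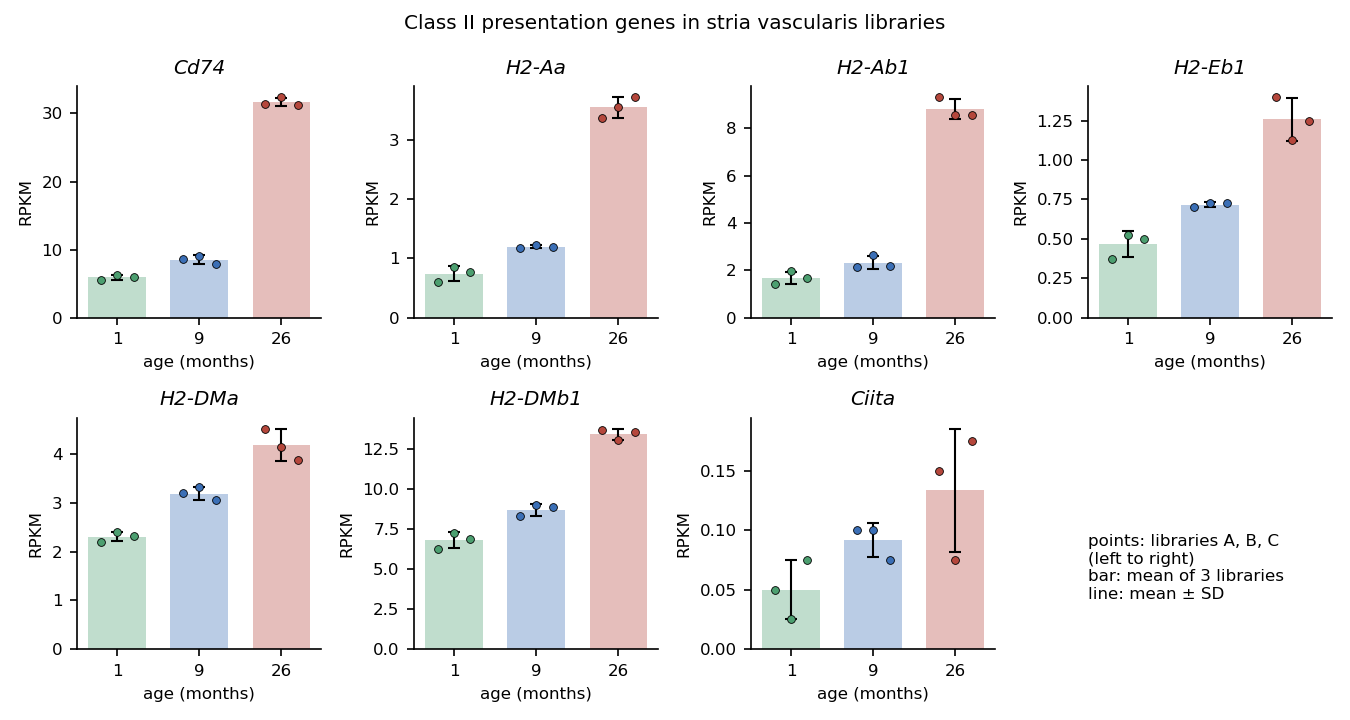
RPKM of each class II gene by age in months, with the 3 libraries of an age as points (A, B and C from left to right), their mean as a bar from 0 and the SD as a line; each panel has its own scale. The 6 genes other than Ciita stand in order of age without overlap, as do 12.8% of all genes tested. Cd74 reaches 31.7 RPKM at 26 months, whereas the Ciita values overlap.

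The order of levels within an age changed between the ages. At 1 month H2-DMb1 (6.82 ± 0.505 RPKM) and Cd74 (5.90 ± 0.388) led with library values that met at 6.28. At 9 months the pair again overlapped, at 8.70 ± 0.373 and 8.53 ± 0.603. At 26 months Cd74 stood above H2-DMb1 (13.4 ± 0.345), and H2-Ab1 (8.82 ± 0.440) had passed H2-DMa (4.18 ± 0.326), which led it at both younger ages. H2-Aa, H2-Eb1 and Ciita followed in this order at all 3 ages. Cd74 made up 32.8% of the summed level at 1 month, 34.5% at 9 months and 50.3% at 26 months, and the share of H2-DMb1 was 37.9%, 35.2% and 21.3%.

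Old stria was compared with adult stria to see how the set changed late in life. A call required a limma p of 0.10 or less after Benjamini-Hochberg adjustment over all 15806 genes tested, together with a log2 fold change of 1 or more in either direction. Fold changes are on the log2(RPKM + 0.1) scale, which understates the change of low genes such as Ciita. Of the 7 members 3 were higher at 26 months and 0 were lower, and of all genes tested 3.28% were called higher and 4.05% lower, 7.33% in all. Cd74 rose by a log2 of 1.88 (95% interval 1.74 to 2.03, adjusted p = 4.73e-08), which is a fold of 3.69. H2-Ab1 rose by 1.89 (1.63 to 2.14, adjusted p = 1.22e-06) and H2-Aa by 1.49 (1.25 to 1.73, adjusted p = 3.44e-06). These 3 calls held under all 23 alternatives tried. The alternatives are not independent. Those that changed only a threshold reused the same fit, and leaving out a library of 1 month left these log2 fold changes as they were. With the near-identical libraries averaged, which leaves no spread at 26 months, the log2 fold changes were 1.86 for Cd74, 1.84 for H2-Ab1 and 1.48 for H2-Aa.

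The other members had smaller differences between 9 and 26 months. The log2 fold change was 0.73 for H2-Eb1 (0.46 to 0.99, adjusted p = 6.00e-04), 0.62 for H2-DMb1 (0.48 to 0.75, adjusted p = 2.38e-05) and 0.38 for H2-DMa (0.22 to 0.53, adjusted p = 0.00118). All 3 passed the adjusted p and missed the fold, so that 6 of 7 members were higher with no fold threshold, where 29% of all genes were. With the near-identical libraries averaged, H2-DMa no longer passed, with an adjusted p of 0.104 over a range of 3.10e-05 to 0.104 in all alternatives. Ciita had a log2 fold change of 0.26 (-0.19 to 0.71, adjusted p = 0.298), an interval that still includes a fold as large as that of H2-DMb1. The median log2 fold change was 0.73 over the members and -0.03 over all genes tested.

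Adult stria was compared with young stria in the same fit, which shares the 9-month libraries with the comparison above. Of the 7 members 0 were called, while 10.1% of all genes tested were called higher and 1.47% lower. The log2 fold changes were 0.64 for H2-Aa, 0.54 for H2-Eb1, 0.52 for Cd74, 0.45 for H2-DMa, 0.44 for H2-Ab1, 0.36 for Ciita and 0.35 for H2-DMb1. All but Ciita passed the adjusted p, as did 54.7% of all genes in this direction. With quantile normalization Cd74 alone still passed (adjusted p = 0.0384, against 0.277 to 0.757 for the other members), and with median of ratios scaling H2-Ab1 (adjusted p = 0.273) and H2-DMb1 (0.510) did not pass. The median of all genes itself stood at 0.27 and lost this shift under 3 other scalings, where it lay between -0.04 and 0.00. Relative to that median the members differed by 0.37 for H2-Aa, 0.26 for H2-Eb1, 0.25 for Cd74, 0.18 for H2-DMa, 0.17 for H2-Ab1, 0.09 for Ciita and 0.08 for H2-DMb1. The direction of H2-Ab1 (-0.07) and H2-DMa (-0.03) turned with quantile normalization and that of Ciita (-0.24) once the trend with exon length was removed. With quantile normalization 531 genes were called higher and 463 lower, against 1594 and 233 on the deposited scale, with 748 and 395 by median of ratios scaling and 566 and 324 once the length trend was removed.

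Between 1 and 26 months 4 of 7 members were called higher, against 9.93% of all genes tested, and 0 lower, against 2.51%. Cd74 rose by a log2 of 2.41 (2.27 to 2.55, adjusted p = 6.01e-09), H2-Ab1 by 2.33 (2.08 to 2.58, adjusted p = 1.73e-07) and H2-Aa by 2.13 (1.89 to 2.36, adjusted p = 1.94e-07). H2-Eb1 rose by 1.27 (1.00 to 1.53, adjusted p = 9.91e-06), and this call was lost with a pseudocount of 1 RPKM (0.62) and with quantile normalization (0.95). H2-DMb1 lay just under the fold threshold at 0.97 and passed it without library B of 1 month (1.02). H2-DMa stood at 0.83 and Ciita at 0.62 (0.17 to 1.08, adjusted p = 0.0199). The median of all genes was 0.24 here, and relative to it the 7 values ranged from 0.38 for Ciita to 2.17 for Cd74. With no fold threshold 7 of 7 members passed upwards, as did 52.7% of all genes. Ciita, among these 7, reached 0.1 RPKM in no library of 1 month. It met the filter only through the older ages, where it was higher, so its pass gives no support. Every old library stood above every young one in 6 of 7 members, as in 52.9% of all genes. In all, 6 of 7 members had libraries ordered 1, 9 and 26 months without overlap, an order found in 12.8% of all genes tested. The scale again moved the balance over all genes, from 1570 higher and 396 lower to 802 and 742 with quantile normalization, 927 and 692 by median of ratios scaling and 827 and 557 without the length trend.

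**Figure D2:**
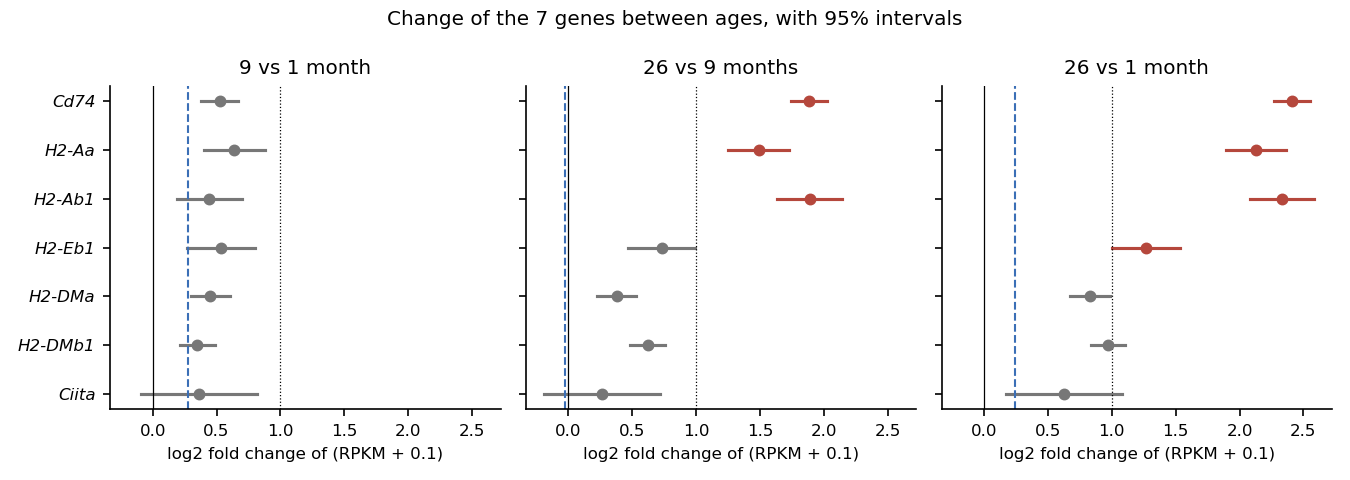
Log2 fold change of (RPKM + 0.1) of each member in the 3 comparisons, as a point with its 95% interval. Red marks a call, the dotted line a log2 of 1 and the dashed line the median of all genes tested; Cd74, H2-Ab1 and H2-Aa pass the fold threshold in both comparisons with 26 months, and the 7 members of the left panel stay below it.

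The unequal changes were also measured as ratios within a library, which no scaling factor of a library can change. These 14 ratios were picked with their values known, and an exact 2-sided permutation test of 3 against 3 libraries cannot go below p = 0.1, or 0.175 after adjustment over the 28 comparisons made. The ratio of Cd74 to H2-Ab1 was 3.54 ± 0.321 at 1 month, 3.70 ± 0.306 at 9 months and 3.60 ± 0.218 at 26 months, with libraries that overlapped (exact permutation p = 0.7 for 26 against 9 months). The ratio of H2-Aa to H2-Ab1 was 0.440 ± 0.0211, 0.522 ± 0.0478 and 0.404 ± 0.0375, without overlap between 9 and 26 months. H2-Eb1 against H2-Ab1 was 0.277 ± 0.0189, 0.312 ± 0.0308 and 0.142 ± 0.0097, so the old libraries were all lower, by a log2 of -1.13 from 9 months. H2-DMa against H2-Ab1 was 1.39 at 1 month, 1.39 at 9 months and 0.474 at 26 months, and H2-DMb1 against H2-Ab1 was 4.08, 3.78 and 1.52. For both H2-DM chains and for H2-Eb1 the exact permutation p between 9 and 26 months was 0.1, the smallest possible. Of these 5 ratios to H2-Ab1, that of H2-Aa alone was without overlap between 1 and 9 months.

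The genes with a profile most like that of Cd74 were found by the root mean square difference of log2(RPKM + 0.1), each centred on its mean, over the 9 libraries and among 10372 genes. H2-Ab1 was nearer than any other gene (0.0953). Counting genes outside the set, 6 were nearer to Cd74 than H2-Aa (0.187), 216 than H2-Eb1, 448 than H2-DMb1, 906 than H2-DMa and 2068 than Ciita. Outside the set the nearest genes were Junb (0.111), a subunit of the AP-1 transcription factor, and Itgb2 (0.112), the β2 integrin chain of leukocytes. Junb averaged 8.13, 10.1 and 42.7 RPKM at the 3 ages and Itgb2 0.875, 1.32 and 4.39. The next were Wtip, Osbp, Pmepa1, Plek, Ecm1, Rftn1, Serpina1b and Rasd1, with differences of 0.124 to 0.212. The 9 libraries share 3 ages, so any gene with a like step at 26 months scores as near.

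Genes that act with class II molecules were described from lists, by the same call. Among 11 genes of endosomal processing, Ctss, which encodes the cathepsin S that trims the invariant chain, was the only gene called at 26 against 9 months. Of all genes tested 7.33% were called in either direction, so 1 call in a list of this size is near that share. It averaged 17.8 ± 0.288, 23.8 ± 1.42 and 62.7 ± 1.06 RPKM and rose by a log2 of 1.40 (adjusted p = 4.65e-08). Ctsb, at 507 RPKM in adults and 735 in old mice, had a log2 fold change of 0.54, and Ctsl, a cathepsin that trims the invariant chain in thymic epithelium, a value of -0.45. Ifi30, a thiol reductase of endosomes, was called in no comparison, with means of 40.4, 23.1 and 27.3 RPKM. Ctsc passed between 1 and 26 months at 1.07, where the median of all genes was 0.24. The list median between 9 and 26 months was 0.24.

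Of 10 tested genes for partners of CIITA on the promoter, 0 were higher and 1 was lower between 9 and 26 months, with a median of -0.04, where 7.33% of all genes were called in either direction. The gene that was lower was Nfya, the regulatory subunit of NF-Y, at 0.142, 0.517 and 0.1 RPKM at 1, 9 and 26 months. Rfx5, the large RFX subunit, averaged 2.54 ± 0.115, 3.93 ± 0.456 and 5.68 ± 0.166 RPKM and was called between 1 and 26 months (log2 of 1.13, adjusted p = 1.91e-06) but not between 9 and 26 months (0.53). The other RFX subunits had log2 fold changes of 0.12 (Rfxap) and 0.04 (Rfxank) between 9 and 26 months. Crebbp, a histone acetyltransferase recruited by CIITA, was also called between 1 and 26 months at 1.13. In that comparison the median of all genes was 0.24.

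Interferon γ is the classic inducer of Ciita. Its gene, Ifng, was at 0 in all libraries of 1 and 9 months and averaged 0.0167 RPKM at 26 months, and it was not tested. Of 10 tested genes between the receptor and Ciita, Irf8, a factor of myeloid and B cells, was the only gene called between 9 and 26 months (log2 of 1.52, adjusted p = 1.29e-06), at 0.617, 0.350 and 1.18 RPKM. This 1 call is near the 7.33% of all genes called in either direction. Irf1, a transcription factor induced by interferon, measured 3.77, 4.46 and 3.42 RPKM, with a log2 fold change of -0.37 between 9 and 26 months. Jak2 was called between 1 and 26 months at 1.30. The list median was 0.33 between 9 and 26 months.

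Molecules that stabilise or accompany class II on the cell surface had a few calls. Cd83, which protects class II from removal by the ubiquitin ligase March1, averaged 1.89 ± 0.0878, 1.84 ± 0.0629 and 4.72 ± 0.232 RPKM and rose between 9 and 26 months by a log2 of 1.31 (adjusted p = 2.78e-07). March1 itself averaged 0.0167, 0.0667 and 0.0917 RPKM and was not called. The T cell costimulator Cd86 rose by 1.17 (adjusted p = 0.0013), from 0.158 ± 0.0804 to 0.467 ± 0.0382 RPKM, and Cd80 and Cd40 were not called. Tnfsf9, the ligand of CD137, fell by 1.14 on the log2 scale. Cd274, the checkpoint ligand PD-L1, measured 0.250, 0.600 and 1.26 RPKM and was called at 9 against 1 month and 26 against 1 month. The log2 fold change of the first call was 1.00, at the threshold, where the median of all genes was 0.27. That of the second was 1.97. Of 6 class I and other genes in the class II region, Psmb8, an immunoproteasome subunit, was the only gene higher between 9 and 26 months, against 3.28% of all genes tested. It measured 2.76, 3.40 and 7.97 RPKM (log2 of 1.21). Its neighbours Tap1 (0.12), Psmb9 (0.43), Tap2 (0.29) and Brd2 (-0.22) were not called.

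Summed over the list, macrophage markers were highest at 26 months, as were the members, and their part in the result was not tested. The summed level of 22 macrophage genes was 220.4 to 231.5 RPKM at 1 month, 395.3 to 415.0 at 9 months and 1229 to 1250 at 26 months, with the largest part from Lyz2, the lysozyme of phagocytes, at 84.2, 258 and 946 RPKM. No gene of this list was at 0 in all libraries of an age. Of the 22, 5 were higher between 9 and 26 months and 0 lower, against 3.28% and 4.05% of all genes tested, with a median of 0.84. They were Cd14 (2.21 to 27.7 RPKM, log2 of 3.59), Lyz2 (1.87), Cd68 (1.37), Ptprc (1.2) and Cx3cr1 (1.15). Values were negative, without a call, for Lyve1 (-0.89), Mrc1 (-0.48), P2ry12 (-0.35), Maf (-0.23) and Cd163 (-0.17). The rest of the list had positive values. Between 1 and 9 months Lyz2 was the only gene of the list called (1.62), where 11.6% of all genes were called in either direction. The list median was 0.02 against 0.45 for the members.

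The macrophage genes differed among themselves. Csf1r, the receptor on which resident macrophages depend, averaged 5.29 ± 0.224, 5.03 ± 0.353 and 5.58 ± 0.281 RPKM, with a log2 fold change of 0.15 between 9 and 26 months (adjusted p = 0.0741). The ratio of Cd74 to Csf1r was 1.11 at 1 month, 1.70 at 9 months and 5.69 at 26 months, with no overlap between ages (exact permutation p = 0.1 for 26 against 9 months, the smallest possible). Against Tyrobp, an adaptor of myeloid receptors, the ratio of Cd74 was 0.216, 0.318 and 0.596. Against Cd68, a lysosomal glycoprotein of phagocytes, it was 0.562, 0.622 and 0.890, and against Ctss 0.332, 0.361 and 0.505. Against Ptprc, the leukocyte common antigen CD45, it was 55.1 ± 7.68, 62.6 ± 26.2 and 68.0 ± 1.80, with overlap between 1 and 9 months (exact permutation p = 0.8) and between 9 and 26 months (p = 0.7). Against Lyz2 it was 0.0701, 0.0330 and 0.0335, and the libraries of 9 and 26 months overlapped (exact permutation p = 0.7 for 26 against 9 months). Lyve1 and Mrc1, markers of perivascular macrophages, were low and not called, at 0.133 and 0.225 RPKM in adults and 0.025 and 0.133 in old mice.

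**Figure D3:**
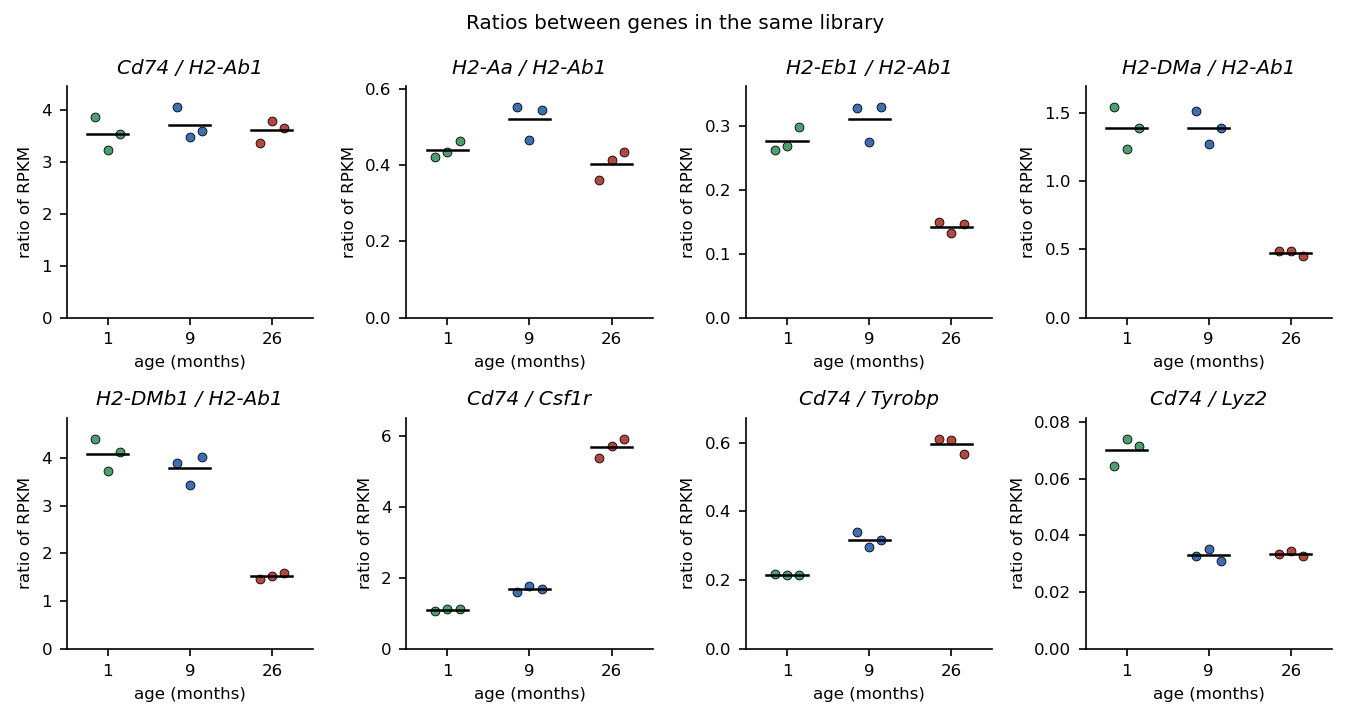
Ratio of RPKM between 2 genes in the same library, by age in months, with libraries A, B and C as points from left to right and the mean as a line; axes start at 0. The ratio of Cd74 to H2-Ab1 averages 3.54 to 3.70, those of H2-Eb1 and both H2-DM chains to H2-Ab1 are lowest at 26 months, and that of Cd74 to Csf1r is highest there at 5.69.

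The summed level of B cell markers did not share the order of the members, and their part in the result was not tested. The 12 genes summed to 21.7 to 23.5 RPKM at 1 month, to 2.33 to 2.60 at 9 months and to 4.65 to 5.40 at 26 months. At 1 month most of this came from Igkc (11.1 RPKM) and Ighm (6.82). Of 10 tested, 8 were lower at 9 than at 1 month, against 1.47% of all genes tested. Among them were Cd79a (1.44 to 0.192 RPKM) and Ighm (6.82 to 0.667). Between 9 and 26 months Blk (log2 of 2.75), Cd22 (1.34) and Igkc (1.15) were higher, whereas Cd79a averaged 0.192 and 0.225 RPKM. The means of Cd22 rose with age, at 0.108, 0.158 and 0.550 RPKM. Ms4a1 was at 0 in all libraries of 9 and 26 months and Pax5 in all 9 libraries.

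The 11 dendritic cell genes summed to 1.45 to 1.58 RPKM at 1 month, 2.68 to 3.18 at 9 months and 2.88 to 3.03 at 26 months, so that the adult and old libraries overlapped. Of these genes 4 were tested, Flt3 and Xcr1 were at 0 in all libraries, and Clec9a and Clec10a were at 0 at 1 and 26 months. Itgax, which macrophages also express, was at 0 at 1 month and rose from 0.108 ± 0.0289 to 0.550 ± 0.0661 RPKM between 9 and 26 months (log2 of 1.65, adjusted p = 1.16e-05). Zbtb46 averaged 0.742, 0.900 and 1.28 RPKM and was not called. Fscn1, an actin-bundling protein of mature dendritic cells and other cell types, averaged 0.483, 1.79 and 0.975 RPKM and was called higher at 9 than at 1 month (log2 of 1.70). Siglech, the remaining tested gene, averaged 0.167, 0.0333 and 0.0667 RPKM and was called lower at 9 than at 1 month (log2 of -1.04). Most of the summed T cell level, 8.90 to 9.23, 9.23 to 9.95 and 11.9 to 12.5 RPKM, came from Cd2, an adhesion receptor, at 8.46, 8.10 and 7.43 RPKM, which was not called. Of 9 tested T cell genes 5 were higher between 9 and 26 months, against 3.28% of all genes tested. They were Cd3g, Il2rb, Cd3e, Trbc2 and Cd3d, the first from 0.125 ± 0.0661 to 1.41 ± 0.181 RPKM. Trac averaged 0.283, 0.108 and 0.167 RPKM and was called lower at 9 than at 1 month (log2 of -1.01). It was not called between 9 and 26 months. Cd4, which CD4 T cells share with some macrophages, averaged 0.142, 0.875 and 1.18 RPKM, and Cd8a did not exceed 0.0167 on average.

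**Figure D4:**
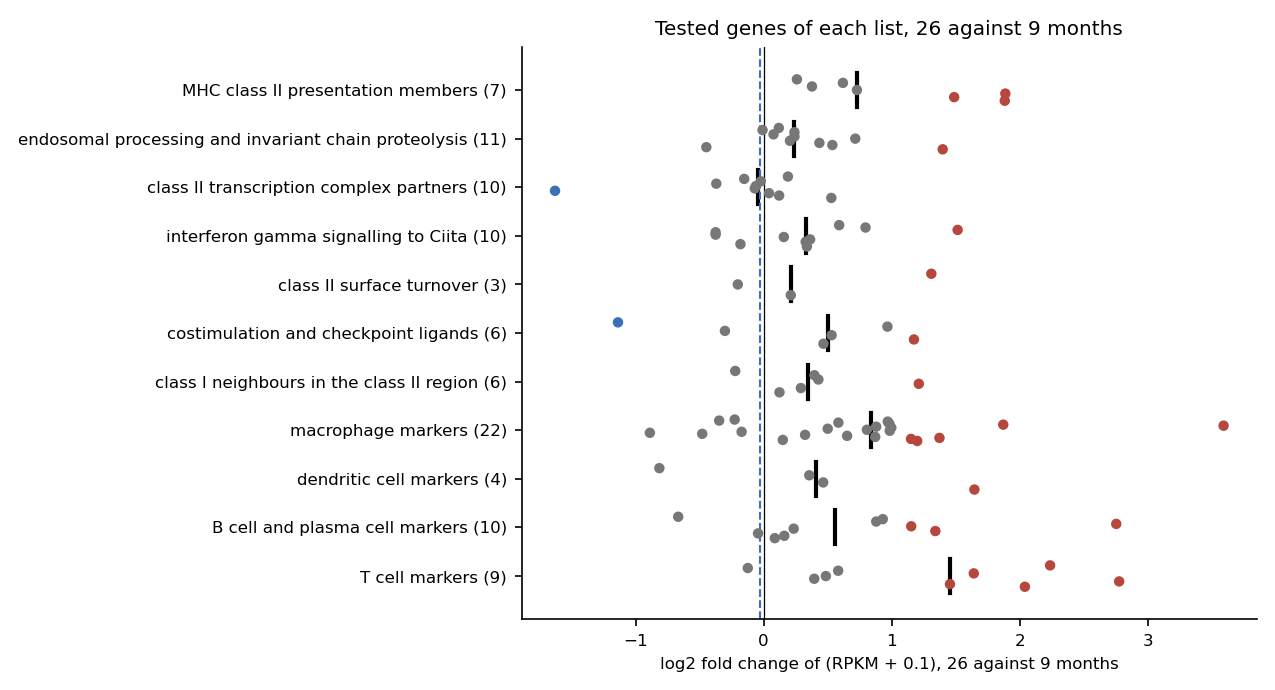
Log2 fold change of (RPKM + 0.1) between 9 and 26 months for every tested gene of each list, with the number tested in brackets and the list median as a black bar. Red and blue mark genes called higher and lower, and the dashed line is the median of all genes (-0.03); the members' median is 0.73, that of the macrophage markers 0.84 and that of the transcription complex partners -0.04.

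In the young stria the members mostly had their lowest and highest values in the same libraries. How many of all genes shared this order was not counted, so it is not shown to be particular to the members. Library A of 1 month also stood apart over the 500 most abundant genes. Its median coefficient of variation was 5.13% with B and 4.08% with C, against 1.2% for B with C. At 1 month library A had the lowest value for 6 of the 7 members and library B the highest for 6. At 9 months library B was highest for 5, and at 26 months library A was highest for 4 and lowest for 1. The calls for Cd74, H2-Ab1 and H2-Aa between 9 and 26 months held without each library in turn.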

How the data were processed

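Gene expression was measured in 9 libraries of stria vascularis cells, made with SMARTer and Nextera chemistry and sequenced in 4 runs each. According to the labels the tissue was dissociated with trypsin, and according to the study's methods with collagenase. The authors mapped reads to GRCm38 with CLC Genomics Workbench (version not given in the sources used here) and deposited RPKM, 1 value per library and gene. All values are multiples of 0.025 RPKM, no counts were used here, and the depth is unknown. A notes sheet writes another age beside the columns of the old mice, and the labels' 26 months was used. Sheets with the authors' age means, p-values and fold changes were not used.

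The deposited RPKM were put on the log2(RPKM + 0.1) scale, and 15806 genes reaching 0.1 RPKM in 3 or more libraries were kept. All 9 libraries entered a limma 3.58.1 fit (R 4.3.3, empirical Bayes with trend) with 1 mean per age. Calls needed an adjusted p (Benjamini-Hochberg) of 0.10 or less and a log2 fold change of 1 or more in size. Ratios were compared with exact permutation tests in SciPy 1.17.1. The method was tested on simulated data. Gene models are from GENCODE M21, which matched 48349 of 48709 genes, and promoters from RefSeq (GRCm38.p6).

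The members and gene lists were chosen with earlier results of these data known. All members are named. From the other lists, genes were taken from those called in any comparison or otherwise among the 4 most abundant, plus genes named for their role with their values. Not every called gene is named, for example Adgre1, Laptm5, Mertk and Trem2, which were higher at 26 months than at 1 month. Itgam was not analysed here, and some genes of the lists are not reported here. Alternatives were other pseudocounts, filters, scalings, thresholds and variance models, fits on 2 ages, a replicate block, averaged near-identical libraries and leaving out each library.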

Additional observations from a re-analysis of the deposited data

How the results depend on the processing

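For 26 against 9 months the calls of Cd74, H2-Ab1 and H2-Aa held under all 23 alternatives, with log2 fold changes of 1.78 to 1.95, 1.57 to 2.02 and 1.05 to 1.60. Among these alternatives, the fit with averaged libraries has no spread at 26 months, and those that change only a threshold reuse the same fit. H2-Eb1 and Ciita could not be fitted with a mean filter of 1 RPKM, which removed them. With no fold threshold 6, 6 and 7 members passed for 26 against 9, 9 against 1 and 26 against 1 month, in place of 3, 0 and 4, and without each library in turn 3 to 3, 0 to 0 and 4 to 5 did. For all genes, in the same order of comparisons, the calls numbered 1159, 1827 and 1966 as reported, 311, 453 and 564 with a pseudocount of 1 RPKM, 522, 1063 and 1086 with a mean filter of 1 RPKM, 9923, 11394 and 11674 with no fold threshold, and 1083 to 1194, 1725 to 2078 and 1888 to 1968 without each library. For 9 against 1 month they were 994 with quantile normalization, 1143 with median of ratios scaling and 890 with the length trend removed.

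For 9 against 1 month H2-Ab1 (-0.066) and H2-DMa (-0.030) reversed with quantile normalization and Ciita (-0.24) with the length trend removed. For 26 against 1 month H2-Eb1 was no longer called with a pseudocount of 1 RPKM (0.62) or quantile normalization (0.95), Ciita was called with a pseudocount of 0.025 RPKM (1.07), and H2-DMb1 without library B of 1 month (1.02). Ciita met the filter only through libraries of the older ages. The causes were not tested.

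The letters A, B and C name libraries, and libraries of different ages come from different mice. Libraries of a shared letter correlated between -0.05 and 0.23 in their deviations from the age means, so the letters were not taken to pair samples. The replicate block left 3, 0 and 4 members called, and 1162, 1825 and 1965 of all genes. What sets the limit here is the number of libraries, their uncertain independence and the resolution of the table for Ciita.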
